A study of Mus musculus with 24 samples.

Results

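Eosinophils of maturation stage IV were set against eosinophils of stage III, both sorted from the bone marrow of mice treated with interleukin 33 (IL-33), and messenger RNA was counted per gene by sequencing. The libraries were chosen by their labels alone, 3 of stage IV and 3 of stage III, which makes 6 of the 24 libraries of the series. All mice were wild type of strain C57BL6, and the labels used here give neither age nor sex. The mice of the 6 libraries received 400 ng of recombinant mouse IL-33 into the peritoneum on each of 7 days. Set beside them were libraries of stages II, III and IV from mice in steady state, 3 per stage. Per the labels' protocols, the marrow of 3 mice was pooled for every library, so that differences between single mice cannot be seen. Cells bearing Ly6G, CD90.2, NK1.1 or CD45R, which mark neutrophils, T cells, NK cells and B cells, were removed with magnetic beads. Sorting into stages used Siglec-F, CD55 and CD29, with CD200R3, F4/80, CD117 and Pir-A/B beside them. The genes of these 7 sort markers set the stages apart by design, so their levels are no finding. Those that belong to other gene lists used below were kept in them. Examples are Cd200r3 among basophil and mast cell markers and Kit, which encodes CD117, among stem and progenitor markers.

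Eosinophils are granulocytes that arise in the marrow from dividing precursors. The precursors fill their granules with basic proteins, stop dividing, and then gain the receptors and the motility with which they leave for blood and tissue. IL-33, an alarm cytokine of damaged epithelium, acts through the receptor ST2 (encoded by Il1rl1) and raises eosinophil output together with IL-5. In cells that leave the cell cycle, a pair of gene sets is known to be shut: those of DNA replication, driven by E2F factors, and those of mitosis, driven later by B-Myb and FoxM1 with the MuvB complex.

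Gene counts per library ranged from 11080896 to 14909453 in the 6 libraries. No library was a copy of another: between replicates of a group, the chi-square of the counts divided by its degrees of freedom was 22.3 to 47.0. The first principal component, with 66.9% of the variance, separated the stages, and the second, with 18.7%, set stage IV library 1 (77.7) apart from stage IV libraries 2 (-44.0) and 3 (-53.3). Stage IV library 1 also had the fewest genes with a count, 11666 against 13094 and 13227 in libraries 2 and 3. Defining eosinophil mRNAs were present in all 6 libraries: Prg2, the granule major basic protein, stood at 10645, 11302 and 11572 CPM (gene counts scaled to a common library size) in stage III libraries 1, 2 and 3 and at 10102, 11902 and 9495 CPM in stage IV libraries 1, 2 and 3. The 3 values given in a row for a stage always stand in this order of libraries, and the scaling factors of CPM are those of edgeR's TMM method.

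Of 24982 genes, 12743 had enough counts to be tested, and 3710 of these (29.1%) passed, meaning a Benjamini-Hochberg adjusted p under 0.05 in edgeR's quasi-likelihood test. From stage III to stage IV under IL-33, 1669 genes rose (13.1%) and 2041 fell (16%). Counts of list members below stand against these shares. The falls reached further than the rises: 938 genes fell and 403 rose by at least 2 on the log2 scale, and 212 fell and 84 rose by at least 4. The median log2 fold change over all genes tested was 0.01. Leaving out any 1 of the 6 libraries gave between 2637 and 3086 calls, while limma-voom called 6620 genes and a test against a minimum fold change of 1.5 called 2258. A fit of only the 6 libraries called 5255 genes. With library totals as scaling in place of TMM, the median of all genes moved to -0.21 and the calls to 1099 higher and 2597 lower, so that 29.7% of calls were rises against 45.0% with TMM. In such sorted bulk samples, fewer cells of a type and less RNA per cell cannot be told apart.

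The machinery of DNA replication fell almost as a whole in the step. Of 36 tested genes of S phase, 35 fell, against 16% falls among all genes, with a median log2 fold change of -3.02. Their CPM summed to 4744, 5582 and 4982 in stage III and to 849, 544 and 514 in stage IV. Mcm3, a subunit of the helicase that unwinds DNA at the replication fork (chr1:20802968-20820312 on the minus strand, GENCODE M21 on GRCm38), stood at 312, 372 and 349 CPM in stage III and at 16.8, 18.5 and 10.6 CPM in stage IV. Every stage III library lay far above every stage IV library, with a log2 fold change of -4.49 ± 0.26 (SE, n = 3 and 3, edgeR adjusted p = 1.74e-10). Rrm1, the large subunit of ribonucleotide reductase, which makes the deoxynucleotides, stood at 345, 462 and 383 CPM in stage III and 33.3, 32.4 and 24 CPM in stage IV. Pole, the catalytic subunit of the leading strand polymerase, had the largest fall of the list, from 28.4, 36.3 and 39.3 CPM to 0.0966, 0.268 and 1.09 CPM (log2 fold change -6.12 ± 0.81, edgeR adjusted p = 6.02e-06). Pcna, the sliding clamp that is also used in DNA repair, fell less and kept 73.7, 66.8 and 71.2 CPM in stage IV of 186, 219 and 196 CPM in stage III (log2 fold change -1.51 ± 0.34, edgeR adjusted p = 0.00177). Gins4, a part of the same helicase complex as the Mcm proteins, was the exception of the list and did not pass, with 69.1, 69 and 63.6 CPM in stage III and 69.9, 56.1 and 58.7 CPM in stage IV (edgeR adjusted p = 0.708).

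Mitotic genes fell as a block in the same step. Among 36 tested genes of G2 and mitosis, 35 fell (median -3.44 on the log2 scale), and their summed CPM went from 7351, 8533 and 7275 to 978, 983 and 759. Ccnb2, the cyclin B2 that brings cells into mitosis (chr9:70407692-70421547 on the minus strand), stood at 382, 432 and 372 CPM in stage III and at 45.1, 44.8 and 36.9 CPM in stage IV. The stages did not overlap, and the log2 fold change was -3.23 ± 0.27 (SE, edgeR adjusted p = 2.78e-08). Mki67, which coats mitotic chromosomes and is the usual stain for dividing cells, went from 405, 334 and 382 CPM to 51.2, 43.4 and 35.8 CPM (log2 fold change -3.10 ± 0.30, edgeR adjusted p = 1.47e-07). Plk1, a kinase of mitotic entry and spindle assembly, had a log2 fold change of -4.41 ± 0.42, and Top2a, the topoisomerase that untangles sister chromatids, one of -3.63 ± 0.31 (edgeR adjusted p = 1.39e-07 and 3.41e-08). Every gene named here was lower in each stage IV library than in any stage III library.

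**Figure D1:**
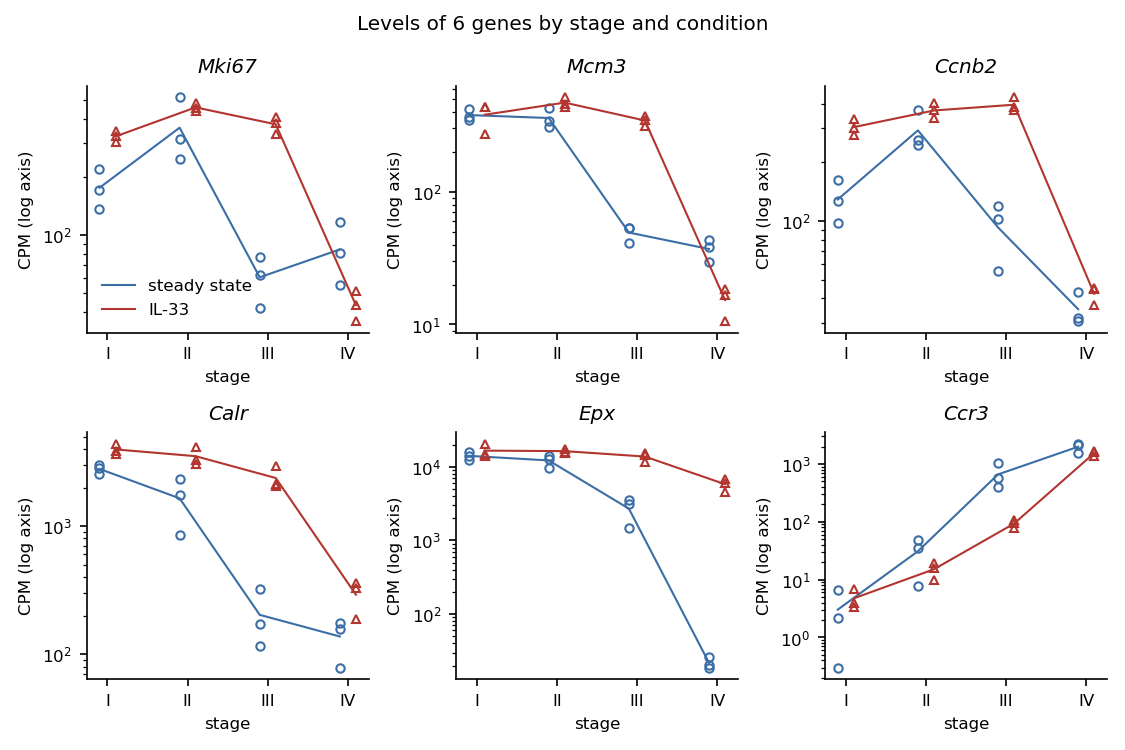
CPM on a log axis of 6 genes in each library by stage, with circles for steady state, triangles for IL-33 and lines through the group means of 3 libraries. Mki67, Mcm3 and Ccnb2 stay close to their stage II level up to stage III under IL-33 and are low in stage IV, while in steady state they are already low in stage III.

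Kif23, a kinesin needed to separate daughter cells at the end of division, was the mitotic gene that did not pass. It stood at 177, 186 and 193 CPM in stage III and at 154, 163 and 187 CPM in stage IV, ranges that overlap (log2 fold change -0.15 ± 0.32, edgeR adjusted p = 0.772). In steady state it stood at 123, 172 and 254 CPM in stage II and at 23.1, 20.6 and 8.59 CPM in stage III, which leaves a difference between the 2 steps of 3.25 ± 0.47 on the log2 scale (edgeR adjusted p = 0.000482). Kif23 (chr9:61915905-61946774 on the minus strand) overlaps 0 other annotated genes. Its neighbour Rplp1, a ribosomal stalk protein, starts 1362 bases beyond its end on the same strand and went from 248, 253 and 214 CPM to 534, 526 and 595 CPM, and its part in the Kif23 reads was not tested.

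Promoter windows of genes that fell together are printed because the letters of known cell cycle elements can be read in them. RefSeq windows on GRCm38.p6, from 250 bases before to 50 after a start site, were searched on both strands. The element of late cell cycle genes (CHR, letters TTTGAA) was in 77.4% of the 31 windows that 29 of the 36 tested mitotic genes had, against 17.9% of all 32851 windows and 12.4% of those of all genes tested. Windows of all genes that fell held the CHR in 15.7% and windows of genes that rose in 11.9%. Together with at least 2 CCAAT boxes (letters CCAAT) the CHR was in 45.2% of the mitotic windows and in 2.09% of all windows. Among the 35 mitotic genes that fell, at least 13 had such a window, since windows on a chromosome named below were left out of this count. The windows of the 2 of these with the smallest p follow, with both elements in capitals.
Ccnb2, chr9:70421505-70421804, minus strand: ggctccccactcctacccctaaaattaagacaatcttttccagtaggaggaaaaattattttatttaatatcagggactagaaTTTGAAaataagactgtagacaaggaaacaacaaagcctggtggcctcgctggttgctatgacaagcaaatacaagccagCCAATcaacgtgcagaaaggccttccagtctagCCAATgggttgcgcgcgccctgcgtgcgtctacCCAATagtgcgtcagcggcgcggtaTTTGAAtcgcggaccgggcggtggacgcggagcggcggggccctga
Top2a, chr11:99024140-99024439, minus strand: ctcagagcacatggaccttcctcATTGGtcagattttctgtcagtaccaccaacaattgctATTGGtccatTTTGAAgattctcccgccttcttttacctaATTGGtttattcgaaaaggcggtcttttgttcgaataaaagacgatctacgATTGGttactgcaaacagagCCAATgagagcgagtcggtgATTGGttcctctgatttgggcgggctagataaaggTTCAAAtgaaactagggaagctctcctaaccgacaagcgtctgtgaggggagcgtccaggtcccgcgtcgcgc
The Ccnb2 window holds 2 matches of the CHR and 3 of the CCAAT box, and the Top2a window holds 2 and 6.

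E2F elements (letters TTCCCGC or TTGGCGC) were in 54.3% of the 35 windows of the tested replication genes, against 6.81% of all windows, 11.8% of those of genes tested and 16.1% of the mitotic windows. Windows of genes that fell held one in 20.5% and windows of genes that rose in 8.46%. Of the 35 replication genes that fell, 18 had such a window, and those of Mcm3 and Mcm7, both of the replicative helicase, are printed with the E2F matches in capitals.
Mcm3, chr1:20820263-20820562, minus strand: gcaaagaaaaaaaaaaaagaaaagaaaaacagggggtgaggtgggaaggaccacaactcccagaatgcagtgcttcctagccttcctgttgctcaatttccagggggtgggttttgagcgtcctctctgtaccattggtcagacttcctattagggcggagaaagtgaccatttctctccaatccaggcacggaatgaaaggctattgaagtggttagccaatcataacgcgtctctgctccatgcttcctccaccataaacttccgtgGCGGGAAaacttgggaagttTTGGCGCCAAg
Mcm7, chr5:138171834-138172133, minus strand: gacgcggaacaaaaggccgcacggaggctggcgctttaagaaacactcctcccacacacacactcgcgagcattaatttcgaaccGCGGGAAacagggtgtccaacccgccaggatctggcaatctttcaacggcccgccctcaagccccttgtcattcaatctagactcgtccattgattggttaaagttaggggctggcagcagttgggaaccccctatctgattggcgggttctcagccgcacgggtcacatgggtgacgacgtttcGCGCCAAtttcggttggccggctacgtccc
The Mcm3 window holds 3 matches, of which 2 overlap on opposite strands close to the start, and the Mcm7 window holds 2. A match gives only the letters present in the window, and binding was not measured.

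The regulators that switch these genes moved as well. Of 17 tested genes of the E2F and MuvB group, 11 fell and 1 rose. The 1 rise, Lin37, a subunit of MuvB, went from 50.2, 49.5 and 47.8 CPM to 69, 76.5 and 91.2 CPM. It did not pass with library totals as scaling, with no filter on low counts or with the minimum fold change of 1.5. Nor did it pass without any 1 of the libraries other than stage IV library 1. Foxm1, the mitotic transcription factor, went from 68.9, 97.4 and 80.0 CPM to 1.83, 3.31 and 2.64 CPM (log2 fold change -4.98 ± 0.63, edgeR adjusted p = 3.85e-06). Mybl2, which encodes B-Myb, went from 35.3, 52.6 and 35.3 CPM to 13.8, 1.61 and 1.91 CPM (log2 fold change -2.83 ± 0.75), and E2f8, a repressing E2F that is itself made in S phase, had a log2 fold change of -2.86 ± 0.31. Foxm1 and Mybl2 were lower in each stage IV library than in any stage III library, though Mybl2 stayed higher in stage IV library 1 than in libraries 2 and 3. Among 7 tested inhibitors of cyclin-dependent kinases, 3 rose and 1 fell. Cdkn1b, which encodes p27, the inhibitor that holds resting cells out of the cycle, rose from 25.4, 13.3 and 10.4 CPM to 76.1, 70.1 and 63.2 CPM (log2 fold change 2.09 ± 0.37, edgeR adjusted p = 0.000182). Cdkn2a, which encodes p16 and p19Arf, stood at 2.91, 1.00 and 1.04 CPM in stage III and at 15.7, 23 and 35 CPM in stage IV (log2 fold change 3.89 ± 1.01). Of 12 tested G1 cyclins, kinases and pocket proteins, 6 fell. Cdk4, the kinase partner of D cyclins, had a log2 fold change of -1.83 ± 0.29, and Rbl1, the pocket protein p107, one of -2.41 ± 0.29.

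Genes that copy and pack chromatin followed. Of 14 tested genes of recombination repair and checkpoints, 12 fell (median -3.32). Rad54l, which remodels DNA in homologous recombination, stood at 59.2, 63.3 and 64.1 CPM in stage III and at 1.16, 1.70 and 2.18 CPM in stage IV, and Brca1 had a log2 fold change of -4.02 ± 0.73. Among 16 genes of chromatin in dividing cells, 15 fell, with Ezh2, the methyltransferase of Polycomb repression, at 93.1, 93.6 and 79.2 CPM and then 8.98, 13.3 and 18.6 CPM, and Dnmt1, which copies DNA methylation, at 119, 174 and 192 CPM and then 46.6, 40.6 and 43.5 CPM. Of 69 replication-dependent histone genes in the files, 57 were tested, of which 38 fell and 1 rose (median -2.32). The 1 rise, Hist1h1c, did not pass once any 1 of the 6 libraries was left out. Histone genes are near-identical copies, so reads may be split between them, and their mRNA lacks the usual poly(A) tail on which the library method relies. The nuclear lamina showed no such block, since 3 of 13 genes fell, among them Lmnb2 from 61.1, 60.2 and 61.9 CPM to 0.773, 12.4 and 8.09 CPM. There was 1 rise, Syne1, a giant protein of the nuclear envelope (log2 fold change 0.74 ± 0.27). It did not pass without stage IV library 1, stage IV library 3, stage III library 1 or stage III library 2. Nor did it pass with library totals as scaling, with no filter on low counts or with the minimum fold change of 1.5.

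Growth genes split into groups that fell and groups that did not. In the Myc network, Myc itself fell from 128, 69.2 and 61.5 CPM to 12.6, 4.02 and 4.27 CPM (log2 fold change -3.63 ± 0.81, edgeR adjusted p = 0.00152). Mxd1, which competes with Myc for its partner Max and represses its targets, rose from 373, 268 and 381 CPM to 1279.7, 1234 and 1004 CPM (log2 fold change 1.78 ± 0.43, edgeR adjusted p = 0.00291). Max rose too (2.66 ± 0.45), and Mxd3, a family member made in dividing cells, fell (-2.88 ± 0.43). Neither Myc nor Mxd1 had overlapping stages. Of 25 genes of ribosome assembly, 21 fell, with a median of -2.11. Nolc1, a nucleolar scaffold, went from 68.8, 84 and 64 CPM to 2.03, 6.79 and 5.09 CPM, and Polr1b, a subunit of the polymerase that makes ribosomal RNA, from 19.5, 17.6 and 15.7 CPM to 0.193, 0 and 0.455 CPM.

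The mRNAs of the ribosomal proteins themselves did not fall with the assembly genes. Of 85 tested cytosolic ribosomal protein genes, 11 rose and 1 fell, against 13.1% and 16% of all genes, a median change of 0.55 on the log2 scale and summed CPM of 22612, 25478 and 20016 in stage III and 28938, 34472 and 34650.5 in stage IV. The count of rises was 8 without stage IV library 1, between 1 and 3 without any 1 of the other 5 libraries, and 2 (with 2 falls) with library totals as scaling. Of 77 mitochondrial ribosomal proteins, 15 fell and 2 rose (27 and 1 with library totals as scaling). With 1 library left out, 10 to 14 fell, and 1 rose unless that library was stage IV library 1. Mrps27 stood at 17, 27.2 and 24.1 CPM in stage III and 5.79, 3.13 and 1.82 CPM in stage IV. Nuclear genes of oxidative phosphorylation had 5 rises and 7 falls among 79 (median 0.14), and glycolysis 3 and 3 among 21. With 1 library left out, oxidative phosphorylation had 0 to 4 rises, with 0 without stage IV library 3 or stage III library 3, and 3 to 6 falls, with 3 without stage III library 2. With library totals as scaling it had 2 rises and 13 falls. Falls in glycolysis numbered 0 to 3 with 1 library left out, with 1 without stage IV library 3 and 0 without stage III library 2, and its rises 1 with library totals. Of 8 genes of heme synthesis, which supplies the eosinophil peroxidase, 4 fell, with Alad at 31.9, 31 and 27.4 CPM and then 9.56, 6.25 and 2.55 CPM. Cholesterol synthesis had 8 falls among 22 genes, 3 without stage IV library 3 and 5 without stage III library 3, and Fdps, which makes the isoprenoid precursor, fell from 380.2, 529 and 411 CPM to 118, 165 and 98.5 CPM.

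**Figure D2:**
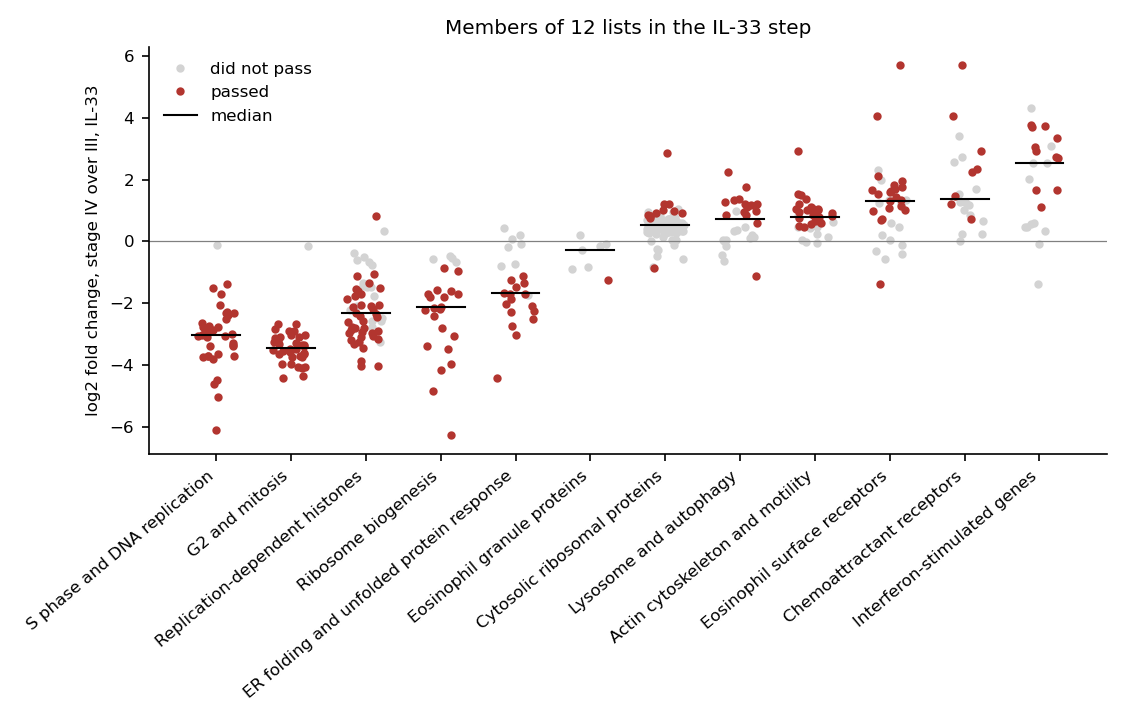
Log2 fold change from stage III to stage IV under IL-33 for every tested member of 12 gene lists, with members that passed in red, the others in grey and the median as a bar. Replication, mitosis, histone, ribosome assembly and protein folding genes lie mostly below 0, and lysosome, actin, receptor and interferon genes mostly above.

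The protein folding machinery of the endoplasmic reticulum (ER) was wound down while granule mRNAs stayed high. Of 24 tested ER genes, 16 fell (median -1.68), and the count stayed at 16 whichever of the 6 libraries was left out. Their CPM summed to 16163, 22186 and 17453 in stage III and to 6162, 7084 and 5370.4 in stage IV. Calr, the chaperone calreticulin (chr8:84841850-84846934 on the minus strand), stood at 2117, 2936 and 2063 CPM in stage III and at 328, 358 and 188 CPM in stage IV (log2 fold change -3.02 ± 0.38, edgeR adjusted p = 3.67e-06). Canx, its membrane partner calnexin, went from 606, 739 and 700.5 CPM to 188, 168 and 147 CPM (-2.02 ± 0.20, edgeR adjusted p = 1.39e-07), and Hspa5, the master ER chaperone BiP, from 2000.1, 3274 and 2523 CPM to 587, 539 and 491 CPM (-2.27 ± 0.55, edgeR adjusted p = 0.00317). All 3 chaperones were lower in each stage IV library than in any of stage III. Xbp1, the transcription factor of secretory cells, did not pass, with 573, 646 and 482 CPM in stage III and 703, 722 and 390.0 CPM in stage IV (edgeR adjusted p = 0.796). In the steady state step from stage II to III Xbp1 went from 482, 376 and 388 CPM to 140.5, 96.6 and 134 CPM, and the difference between the steps was 1.84 ± 0.32 (edgeR adjusted p = 0.00347).

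The ER stress response element (ERSE) is a CCAAT box set 9 bases from the letters CCACG. It was in 35.0% of the 20 windows that 20 of the 24 tested ER genes had. The share was 0.119% of all windows and 0.142% of those of genes tested. Of the 16 ER genes that fell, 7 had such a window, and those of Canx and Calr are printed with the whole element in capitals, on the opposite strand in Calr.
Canx, chr11:50325624-50325923, minus strand: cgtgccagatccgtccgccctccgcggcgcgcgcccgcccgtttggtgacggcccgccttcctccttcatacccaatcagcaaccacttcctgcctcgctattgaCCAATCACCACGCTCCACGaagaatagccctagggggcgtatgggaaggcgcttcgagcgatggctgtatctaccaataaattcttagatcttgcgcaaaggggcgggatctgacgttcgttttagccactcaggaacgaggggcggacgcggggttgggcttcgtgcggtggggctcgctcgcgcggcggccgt
Calr, chr8:84846882-84847181, minus strand: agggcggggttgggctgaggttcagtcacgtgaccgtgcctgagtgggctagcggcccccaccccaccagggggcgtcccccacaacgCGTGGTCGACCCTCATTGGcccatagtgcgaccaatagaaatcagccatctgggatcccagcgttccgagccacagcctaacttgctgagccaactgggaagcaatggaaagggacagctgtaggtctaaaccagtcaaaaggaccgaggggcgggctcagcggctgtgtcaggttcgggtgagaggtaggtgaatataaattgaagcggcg
The CCAAT box alone was in 80.0% of the ER windows, 77.4% of the mitotic windows and 37.4% of all windows.

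Granule protein mRNA remained abundant at a lower sum. Of 7 tested genes of the eosinophil granule, 1 fell (median -0.27), and 3 fell with library totals as scaling. The summed CPM went from 27969.7, 33823 and 32821 to 20047, 24184 and 18120.3, lower in every stage IV library. The 1 fall was Epx, the eosinophil peroxidase (chr11:87864000-87875536 on the minus strand), with 11551, 15413 and 14372 CPM in stage III and 5997, 6901 and 4504 CPM in stage IV (log2 fold change -1.25 ± 0.26, edgeR adjusted p = 0.000859). Prg2 did not pass, and its stage III and stage IV values given above overlapped. In steady state these mRNAs were far lower in stage IV: Epx went from 3145, 1477 and 3485 CPM to 20.2, 18.6 and 26.5 CPM and Prg2 from 12199, 7417 and 12134 CPM to 492, 234 and 687 CPM. The difference of the step between conditions passed for 7 of 7 granule genes, against 8.44% positive differences among all genes, and was 5.71 ± 0.39 for Epx (edgeR adjusted p = 5.89e-09) and 4.40 ± 0.40 for Prg2 (edgeR adjusted p = 3.05e-07). Genes of the Ear family in this list are near-identical copies between which reads may be split.

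Lysosome and secretion genes rose. Of 28 genes of lysosomes and autophagy, 14 rose (50.0%, against 13.1% of all genes) and 1 fell (median 0.73). With library totals as scaling 9 rose and 1 fell, where 1099 of all 12743 genes rose. Ctsd, the lysosomal protease cathepsin D, went from 846, 721 and 753 CPM to 3563, 4078 and 3359.6 CPM (log2 fold change 2.25 ± 0.21, edgeR adjusted p = 9.79e-08). Tfeb, the transcription factor of lysosome genes, went from 65.7, 56.4 and 60.8 CPM to 122, 183 and 168 CPM, and Map1lc3b, a membrane protein of autophagosomes, from 312, 294 and 288 CPM to 936, 1099 and 1023 CPM. None of these 3 genes had overlapping stages. Of 17 genes of vesicle fusion, 7 rose (41.2%) and 1 fell. The 1 fall, Rab27b, a GTPase that docks secretory vesicles, went from 8.22, 5.23 and 4.65 CPM to 0.193, 0.983 and 0.0909 CPM and did not pass without stage IV library 1 or stage IV library 3. Only 4 rose without stage IV library 3, without stage III library 1, without stage III library 3 or with library totals as scaling. Rab37, a GTPase of granule release, went from 175, 186 and 203 CPM to 374, 440.6 and 376 CPM.

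Receptors of the mature eosinophil rose together. Of 35 tested surface receptor genes, 20 rose (57.1%, against 13.1% of all genes) and 1 fell (median 1.32). Ccr3, the receptor for eotaxins that draws eosinophils into tissue (chr9:124021972-124031689 on the plus strand), stood at 106, 79 and 93.8 CPM in stage III and at 1400.2, 1585 and 1646 CPM in stage IV. The lowest stage IV library lay far above the highest of stage III, with a log2 fold change of 4.05 ± 0.62 (SE, edgeR adjusted p = 3.41e-05). Il1rl1, which encodes the IL-33 receptor itself, rose from 79.1, 80.8 and 135 CPM to 220.1, 210.3 and 311 CPM (1.33 ± 0.32, edgeR adjusted p = 0.00294). Il5ra, the IL-5 receptor chain, did not pass, with 146, 102 and 213 CPM in stage III and 79.9, 82.6 and 146 CPM in stage IV (edgeR adjusted p = 0.177). The 1 fall was Il17rb, the receptor chain for IL-25, from 14, 7.57 and 16.9 CPM to 3.67, 6.61 and 4.37 CPM (-1.38 ± 0.37, edgeR adjusted p = 0.00645).

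Motility genes rose alongside, and their counts of rises stand against 13.1% of all genes. Neutrophil markers, given below, rose in the same step, and their part in the rises of motility genes was not tested. Of 22 chemoattractant receptors, 8 rose (4 rose without stage III library 2), with the complement receptor C5ar1 at 46.3, 30.5 and 29.4 CPM in stage III and 302, 289 and 225 CPM in stage IV. Ptafr, the receptor for platelet-activating factor, went from 14, 11.2 and 13.2 CPM to 50.5, 57.8 and 76.4 CPM. Of 19 integrins and other adhesion genes, 10 rose. Itga4, a chain of the integrin that binds Vcam1, had a log2 fold change of 1.82 ± 0.32. Of 34 actin genes, 24 rose, with 14 rises without stage IV library 2, 15 without stage III library 2 and 13 with library totals as scaling. Lsp1, an actin-binding protein of leukocytes, went from 16.9, 13.4 and 13 CPM to 93.4, 92.1 and 144 CPM (2.93 ± 0.46). Arpc2, Arpc3, Arpc4 and Arpc5, all parts of the Arp2/3 complex that nucleates branched actin, had log2 fold changes of 0.94 ± 0.17, 1.04 ± 0.22, 1.04 ± 0.19 and 1.02 ± 0.18.

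Transcription factors of the lineage were mixed. Of 28 tested, 11 rose and 2 fell. The falls were Myb, a factor of dividing progenitors, from 232, 218 and 243 CPM to 40.3, 37.4 and 31.1 CPM (-2.67 ± 0.28, edgeR adjusted p = 3.29e-07), and Gfi1, a repressor of granulocyte precursors, from 21.5, 17.6 and 26.5 CPM to 3.96, 1.70 and 5.55 CPM (-2.54 ± 0.37). Cebpb, a factor of mature and activated granulocytes, rose from 867, 476 and 719 CPM to 2144, 2249 and 2563 CPM (1.75 ± 0.32, edgeR adjusted p = 0.000214), and Spi1, which encodes PU.1, from 469, 472 and 484 CPM to 855, 1059 and 998 CPM. Id2 and Rara had log2 fold changes of 1.81 ± 0.28 and 2.74 ± 0.48. Gata1, the factor that sets the eosinophil fate, did not pass, with 229, 254 and 204 CPM and then 333, 309.9 and 236 CPM (edgeR adjusted p = 0.406), nor did Cebpe, a factor of granule genes, with 714, 528 and 534 CPM and then 834, 996 and 901 CPM (edgeR adjusted p = 0.109).

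Cytokine genes of the effector cell rose in part. Of 29 cytokines and chemokines tested, 9 rose and 2 fell (median 1.66). Il4, the cytokine of type 2 immunity, went from 94.6, 72.5 and 70.3 CPM to 280.2, 351 and 372 CPM (2.08 ± 0.25, edgeR adjusted p = 2.05e-06), and the chemokine Ccl6 from 2377, 2232 and 2079.5 CPM to 7754, 9100.0 and 8064 CPM (1.90 ± 0.27, edgeR adjusted p = 1.41e-05). Both had higher values in every stage IV library. Vegfa, the angiogenic growth factor, fell from 59.4, 33.8 and 41.1 CPM to 18.4, 10.1 and 9.19 CPM (-1.83 ± 0.45). In the list of IL-5 and IL-33 receptors, their signals and Stat5 targets, 7 of 20 genes rose and 1 fell. Myd88, the adaptor of the IL-33 receptor, rose from 126, 150.3 and 133 CPM to 332, 346 and 297 CPM (1.25 ± 0.22, edgeR adjusted p = 0.000138), and Pim1, a kinase induced by Stat5, from 184, 95.1 and 184 CPM to 543, 573 and 696 CPM (1.97 ± 0.39, edgeR adjusted p = 0.000465). The 1 fall, Il1rap, the second chain of the IL-33 receptor, went from 27.1, 30.4 and 40.2 CPM to 7.92, 16.5 and 16.6 CPM. It did not pass without stage IV library 1, without stage III library 3 or with the minimum fold change of 1.5. In the NF-kB list 3 of 16 genes rose (18.8%), against 13.1% of all genes. In that of AP-1 and early genes 2 of 20 rose (10.0%), and 1 without stage III library 2.

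Interferon-stimulated genes had the highest median among the lists that are not markers of cell types. Some genes of this kind had few counts, such as Mx1 with 2 over the 3 stage III libraries and 16 over the 3 of stage IV. Of 23 tested, 11 rose (median 2.55, 9 to 11 rises with 1 library left out), and their CPM summed to 478, 452 and 344 in stage III and to 1014, 943 and 773 in stage IV. Isg15, a ubiquitin-like protein, stood at 3.00, 2.48 and 2.33 CPM in stage III and 29.3, 24.6 and 25.3 CPM in stage IV (3.34 ± 0.48, edgeR adjusted p = 1.60e-05). Irf7, the factor that amplifies interferon production, went from 16.2, 14.1 and 16.1 CPM to 49.6, 60.2 and 37.9 CPM (1.67 ± 0.40, edgeR adjusted p = 0.00262). Neither gene had overlapping stages. Of 18 genes of antigen presentation, 10 rose (6 rose without stage III library 3), with B2m, the light chain of class I molecules, at 830.3, 722 and 724 CPM and then 1593, 1911 and 1680.1 CPM. Histocompatibility genes are near-identical copies and their single values are uncertain. Of 15 Bcl2 family genes, 4 rose (26.7%, against 13.1% of all genes). Mcl1, which keeps granulocytes alive, went from 559.5, 423 and 453.6 CPM to 1387, 1270.0 and 1126 CPM, and Bbc3, which encodes the death-promoting PUMA, from 20.8, 16.6 and 22 CPM to 50.2, 68.2 and 89.8 CPM. The other two were Bad and Bak1, of which Bak1 did not pass with any 1 of the 6 libraries left out. In the list of oxidative burst and antioxidant genes, 10 of 25 rose and 3 fell, with 6 rises without stage IV library 2 or stage III library 3 and 5 with library totals as scaling.

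The largest rises by fold change reached genes outside these lists. Slc6a4, the serotonin transporter, stood at 0.171, 0 and 0.321 CPM in stage III and at 102, 67 and 66.9 CPM in stage IV, and Fgfr1, a receptor for fibroblast growth factors, at 0.343, 1.27 and 0.642 CPM and then 194, 207 and 238 CPM. Retnla, a secreted protein of type 2 inflammation also called RELM-alpha, went from 4.45, 9.72 and 3.61 CPM to 196, 353 and 450.1 CPM (5.80 ± 0.65, edgeR adjusted p = 8.23e-07), and Pla2g7, the enzyme that breaks down platelet-activating factor, from 30.2, 10.7 and 16.2 CPM to 945, 1123 and 1176 CPM (5.83 ± 0.70, edgeR adjusted p = 1.87e-06). Asb2, a subunit of a ubiquitin ligase, rose by 5.14 ± 0.57 on the log2 scale, and Arl4c, a small GTPase, by 5.10 ± 0.60. These 6 genes were low in all 3 stage III libraries and higher in all 3 of stage IV. Slc6a4 stood at 0.868, 0.832 and 0 CPM in stage IV of steady state, and Fgfr1 at 56, 165 and 85.8 CPM. Among the largest falls outside the cell cycle were Slc45a3, a sugar transporter, from 23.1, 22.7 and 27.1 CPM to 0, 0.536 and 0.909 CPM, and Slc19a1, the reduced folate carrier, from 19.4, 27.5 and 20.1 CPM to 0.676, 0.804 and 0.273 CPM.

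The step under IL-33 was next set against the same step in steady state, from stage III to stage IV. There 1176 genes passed (9.23%), of which 723 fell (5.67% of genes tested) and the others rose (3.55%). The difference of the step between conditions passed for 2388 genes (18.7%), 1075 positive and 1313 negative (10.3%). In the replication list 2 of 36 genes rose and 1 fell in steady state (median 0.04), and the difference was negative and passed for 33. In the mitotic list 5 of 36 genes fell and 1 rose in steady state (median -0.63), and the difference was negative and passed for 35. Ccnb2 was among those falls, from 103, 55.6 and 119.6 CPM to 43.3, 30.5 and 31.8 CPM (-1.39 ± 0.25, edgeR adjusted p = 0.00102). Mki67 stood at 41.9, 77.2 and 62.6 CPM in stage III and 55.3, 80.6 and 117 CPM in stage IV of steady state, a range that overlaps, and the difference of the step was -3.58 ± 0.41 (edgeR adjusted p = 3.01e-06). Of the genes that fell under IL-33, 196 also fell in this step of steady state, 9.6% of the falls under IL-33 and 27.1% of those in steady state. Of the rises, 153 were shared, 9.17% and 33.8%.

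**Figure D3:**
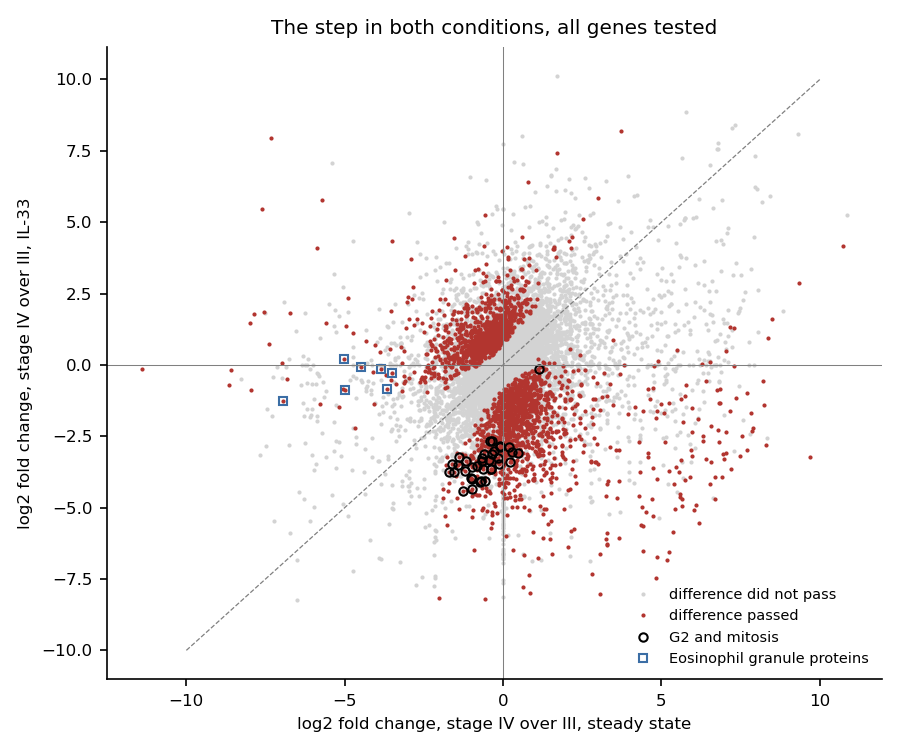
Log2 fold change from stage III to stage IV under IL-33 against that in steady state for the 12743 genes tested, with genes whose difference between conditions passed in red and equal change as a dashed line. Mitotic genes (circles) lie near -3.44 under IL-33 and near -0.63 in steady state, and granule genes (squares) lie near -0.27 under IL-33 and near -4.49 in steady state.

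Set against the earlier step of steady state, from stage II to III, the step under IL-33 differed in few genes. In that step 2188 genes rose (17.2%) and 2217 fell (17.4%), and the difference from the IL-33 step passed for 203 genes (1.59%), 141 positive (1.11%) and 62 negative (0.487%). The 2 steps share no library. The step from stage II to III was taken because cell cycle genes fall in it, so their falls there are no finding. Of the genes that fell under IL-33, 1372 also fell from stage II to III of steady state, 67.2% of the first set and 61.9% of the second. Of the rises, 1160 were shared, 69.5% and 53.0%. The replication list had 34 falls among 36 in that step (median -2.81) and the mitotic list 36 among 36 (median -2.80). The difference passed for 1 replication gene, Mcm3, which fell further under IL-33 (-1.63 ± 0.32, edgeR adjusted p = 0.00891). Ccnb2 and Kif23 were the mitotic genes for which it passed, with Ccnb2 lower under IL-33 (-1.57 ± 0.35, edgeR adjusted p = 0.0189). The Ccnb2 difference did not pass without stage IV library 3 or stage III library 2 of IL-33, nor without steady state stage III library 3, stage II library 1 or stage II library 2. A difference that did not pass does not show that the steps were alike: leaving out the steady state libraries numbered 3 raised the count to 478, and DESeq2 gave 506.

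**Figure D4:**
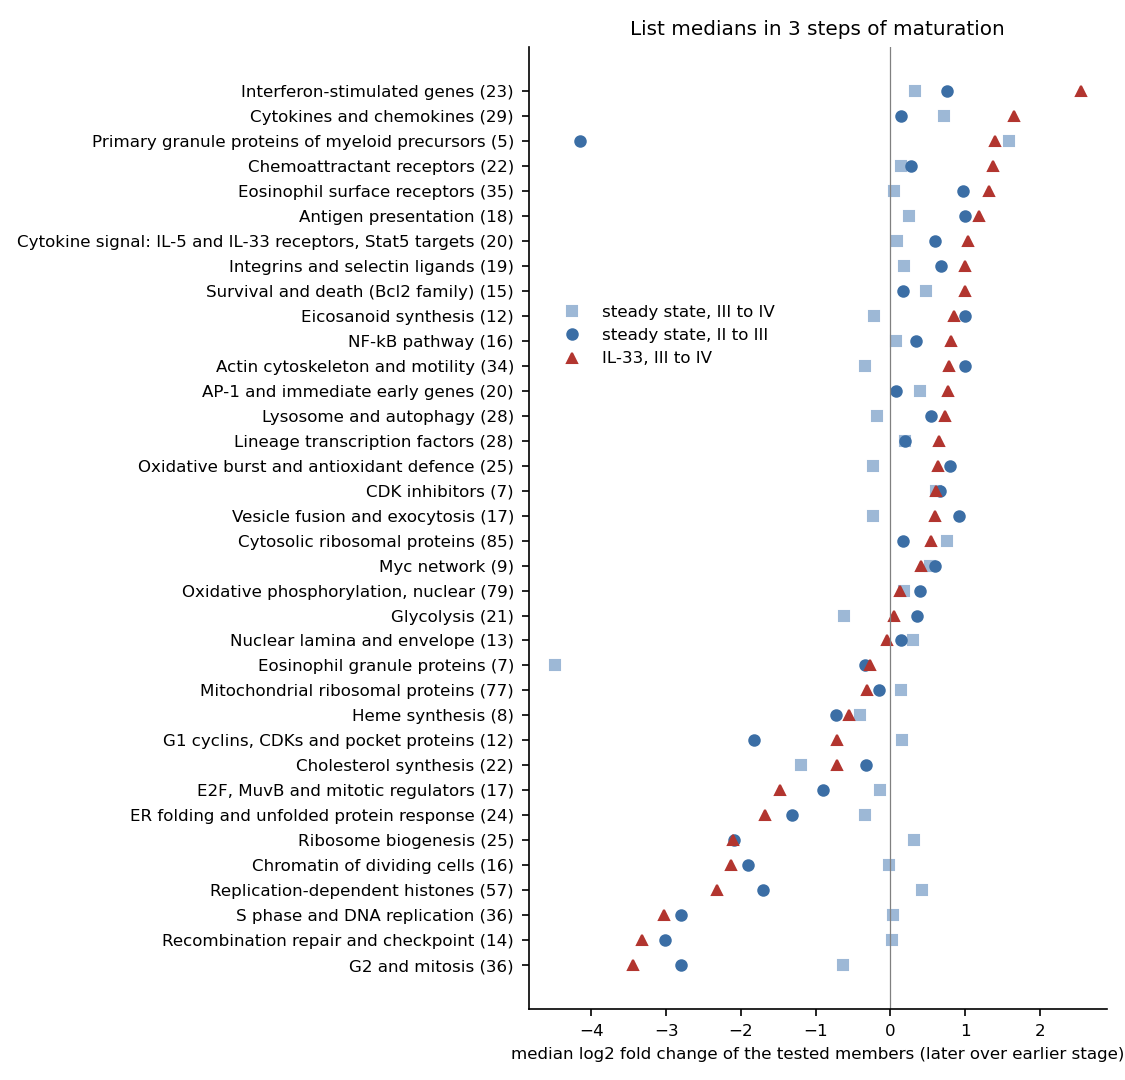
Median log2 fold change of the tested members of each list that is not of cell type or sort markers (number of members in brackets) in 3 steps: IL-33 from stage III to IV (triangles), steady state from II to III (circles) and from III to IV (squares). The 2 steps of steady state share the stage III libraries, and the primary granule and eosinophil granule lists are those among them where triangles and one of the other marks lie furthest apart.

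The lists include those of the cell cycle, for whose falls the stage II to III step was taken. Of 36 lists that are not cell type or sort markers, the median under IL-33 lay nearer to that of the stage II to III step of steady state in 26. Primary granule proteins of myeloid precursors departed from this, with a median of 1.41 under IL-33 and -4.15 in the earlier step of steady state. Their CPM summed to 4473.5, 9767 and 2466 in stage II and to 354.8, 158.8 and 439.9 in stage III of steady state. Under IL-33 the sums were 284.8, 311.9 and 253.6 in stage III and 783.5, 132.9 and 204.9 in stage IV. Neutrophil markers of steady state are given below, and their part in this was not tested. Of 5 primary granule genes, 3 rose and 1 fell under IL-33. Elane, the neutrophil elastase, stood at 8.22, 8.11 and 4.81 CPM in stage III and at 273, 29.5 and 69.7 CPM in stage IV (4.13 ± 0.66, edgeR adjusted p = 5.73e-05), with library 1 the highest of its group. The 1 fall, Ms4a3, a membrane protein of granulocyte and monocyte progenitors, went from 164, 185 and 152 CPM to 82.9, 9.92 and 10.1 CPM, and did not pass without stage IV library 3.

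Markers of other cell types were summed per library, and their part in the results above was not tested. Neutrophil markers stood at a summed 4743, 3409 and 4306 CPM in stage III and 12616, 7972 and 7734 CPM in stage IV, and 9 of 16 rose (6 without stage IV library 1). Stage IV library 1 carried far more of the specific granule mRNAs than its replicates, with Camp at 831, 66.8 and 73.9 CPM and S100a8 at 873, 108 and 148 CPM, against 34, 5.50 and 4.73 CPM and 70.7, 22.1 and 12.8 CPM in stage III. Camp did not pass without that library. Other markers of the list rose evenly: Retnlg stood at 610.3, 319.7 and 449.5 CPM and then 4328, 4609.6 and 4853 CPM, and Mmp9 at 37.7, 16.8 and 23.1 CPM and then 488, 462 and 431 CPM. Ly6g, whose protein was used to remove neutrophils, went from 17.1, 8.11 and 11.3 CPM to 177, 107 and 78.3 CPM. In steady state the neutrophil markers summed to 32192, 19855 and 26188 CPM in stage II. The sums there were 27416.5, 22546.5 and 25715 CPM in stage III and 24161, 11848.5 and 29033 CPM in stage IV. Their part in the comparisons with steady state was not tested.

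Monocyte and macrophage markers summed to 3187, 3074 and 2979.7 CPM in stage III and 4508, 4062 and 4108 CPM in stage IV, with 7 of 18 rising (38.9%, against 13.1% of all genes). The fall was Vcam1, an adhesion molecule of marrow macrophages, from 1474, 1643 and 1566 CPM to 281, 344 and 194 CPM (-2.52 ± 0.51). Basophil and mast cell markers summed to 3397, 3725 and 3544 CPM and 3250.0, 4028 and 2866 CPM, ranges that overlap. Erythroid markers stood at 65.2, 63.7 and 60.6 CPM and then 23.9, 4.29 and 12.2 CPM, led by Tfrc, the transferrin receptor that dividing cells also make, from 39.6, 39.7 and 38.4 CPM to 0.966, 2.15 and 4.37 CPM. Markers of B cells (36.9, 39.6 and 33.7 CPM and then 133, 69.4 and 98.8 CPM) and dendritic cells (39, 49.1 and 32.5 CPM and then 48.7, 65 and 54.7 CPM) were low in all 6 libraries. Those of T and NK cells summed to 306, 367 and 307 CPM and then 208, 249 and 170.1 CPM, lower in every stage IV library. Only 4 of the 13 T and NK markers in the files were tested. Of the 22 tested members of the B cell, T and NK cell and dendritic cell lists 0 passed in edgeR, 0 had an unadjusted p under 0.05, and 1 passed in DESeq2 and 5 in limma-voom. The stem and progenitor list had 2 rises and 3 falls among 8, with Meis1, a homeobox factor of stem cells, at 2.40, 1.27 and 1.52 CPM and then 34.3, 39.1 and 32.5 CPM, and Cd34 at 16.6, 18.1 and 19.8 CPM and then 7.92, 2.95 and 2.27 CPM.

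**Figure D5:**
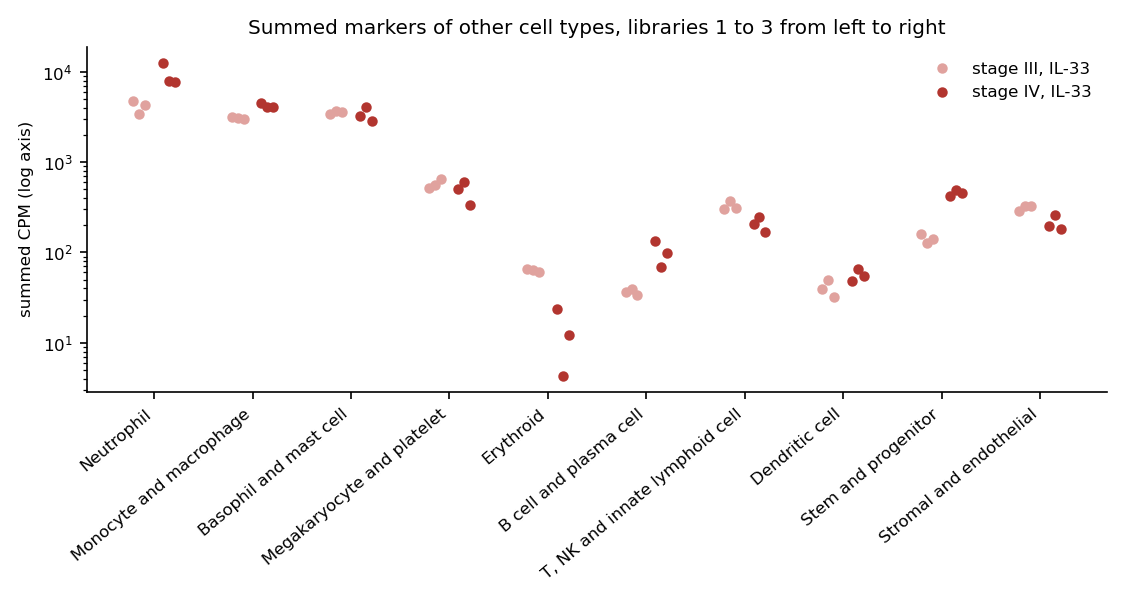
Summed CPM on a log axis of the markers of 10 other cell types in each of the 6 libraries, in library order from left to right, pale for stage III and red for stage IV. The neutrophil sum is highest in stage IV library 1, and the erythroid sum is lower in all 3 stage IV libraries.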

How the data were processed

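The authors deposited whole-number counts of reads per gene for each library, used here as raw counts. The 2 entries that name no gene, reads with no feature (9.19% to 16.6% in the 6 libraries) and ambiguous reads (2.03% to 2.21%), stayed out of library sizes and tests. The submitters' processing notes name STAR 2.6.1a, DESeq2 and mm10. The counting tool was not given in the sources used here, nor was its annotation. Per the labels' protocols, the library kits were Nextera XT and SMART-Seq v4, which do not mark strand, so reads of overlapping genes cannot be told apart. Mitochondrially encoded genes were not analysed here.

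A single edgeR 4.0.16 fit (R 4.3.3) over all 24 libraries in 8 groups, which share one estimate of the spread, gave every test. It used the filter on low counts by group, TMM factors, the quasi-likelihood test and Benjamini-Hochberg adjustment over 12743 genes. The SE is the size of the log2 fold change divided by the square root of F, and interaction contrasts gave the differences between steps. The series' text calls the triplicates biological. The alternatives were DESeq2 1.42.0, limma-voom (limma 3.58.1) with sample weights, RLE factors or library totals as scaling, no filter or one of 10 CPM in 3 libraries, only the libraries of a contrast, a replicate block, a minimum fold change of 1.5, and leaving out each library in turn or the steady state libraries numbered 3. The procedure was checked on simulated data in which few genes changed, so the check does not cover scaling when many genes change.

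The comparison, the 47 gene lists and the tests were chosen with earlier results of these data known. Genes were named by a rule. Its first part took the 10 largest rises and falls by fold change and the 6 largest by CPM, among genes that passed, did not overlap between the stages (27.2% of tested genes lay higher and 27.7% lower in this way) and had a mean of at least 20 CPM in 1 group. It added up to 4 members per list by smallest p, a panel of 54 genes, and 5 genes per direction for each interaction. Other list members were named after their values were seen, to describe exceptions and markers. Positions were taken from GENCODE M21 by symbol, which matched 24498 of 24982 genes (98.1%). Figures were drawn with matplotlib 3.10.9.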

Additional observations from a re-analysis of the deposited data

Results flagged for a closer look

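The genes below are those whose step differed most between conditions by edgeR's test of the difference itself. The step from stage III to IV differed between IL-33 and steady state for 2388 genes. Among genes with at least 20 CPM in 1 group, the most negative differences on the log2 scale were those of Hs3st1 (-10.64), Slc45a3 (-9.97), Slc22a3 (-8.32), Fkbp11 (-7.75) and Pole (-7.60). Hs3st1, a heparan sulfate sulfotransferase, stood at 35.2, 43.3 and 37.7 CPM and then 0, 4.92 and 2.64 CPM in stages III and IV of IL-33, and at 0, 0 and 0 CPM and then 1.82, 1.02 and 0.549 CPM in steady state. Slc22a3, an organic cation transporter, stood at 84.6, 76.5 and 109.6 CPM and then 9.66, 28.2 and 14.7 CPM under IL-33, and at 0, 0 and 0 CPM and then 0.0868, 0 and 2.33 CPM in steady state. Where a group is at 0, as here, the fitted difference depends on the prior count and is no bound. The Slc22a3 difference did not pass without any 1 of 9 of the 12 libraries (stage IV libraries 1 and 3 and every stage III library of IL-33, and stage IV library 3 and every stage III library of steady state).

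The most positive differences were those of Qrfpr (11.25), Fam160a1 (9.46), Chil5 (7.83), Glt28d2 (7.05) and Npl (6.00). Npl, a lyase of sialic acid, rose from 23.8, 14.6 and 17.2 CPM to 450.2, 405 and 354 CPM under IL-33 and stood at 5.95, 7.66 and 18.7 CPM and then 5.82, 1.57 and 3.57 CPM in steady state. Qrfpr, a neuropeptide receptor, stood at 4.03, 1.68 and 4.97 CPM and then 0, 4.92 and 4.73 CPM under IL-33, and at 10.9, 28 and 51.2 CPM and then 0, 0 and 0 CPM in steady state.

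The step under IL-33 differed from the step from stage II to III of steady state for 203 genes. The most positive differences were those of Gpr84 (10.16), Hbegf (10.14), Cdh1 (9.59), Orm1 (8.86) and Fcnb (8.77). Cdh1, the adhesion molecule E-cadherin, stood at 19.9, 17.9 and 15.7 CPM and then 64, 59.4 and 51 CPM in stages III and IV of IL-33, and went from 39, 35.7 and 14 CPM to 0.243, 0.114 and 0 CPM in steady state. Its rise under IL-33 did not pass with any 1 of the 6 libraries left out, while the difference between the steps passed with each of them left out. Fcnb, a lectin of granulocyte granules, stood at 1.20, 2.15 and 1.44 CPM and then 68.7, 5.45 and 15.2 CPM under IL-33, highest in the stage IV library with the most neutrophil marker RNA, and went from 1054, 1468 and 566 CPM to 102, 13 and 14.4 CPM in steady state. The part of neutrophil RNA in this was not tested. The most negative differences were those of Srgap1 (-8.26), Adgrl4 (-7.23), Unc5c (-6.25), Adgrg6 (-4.68) and P2ry10 (-3.82). P2ry10, a receptor for lysophospholipids, stood at 29.3, 20.5 and 35.5 CPM and then 83.1, 67.6 and 88.5 CPM under IL-33, and at 0.441, 2.03 and 4.58 CPM and then 61.7, 97.4 and 126 CPM in steady state. The differences of Adgrl4 and Gpr84 did not pass without any 1 of 9 and of 6 libraries, that of Hbegf without steady state stage II library 3 and that of Unc5c without steady state stage II library 1.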

How the results depend on the processing

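Of 96 named genes that passed in the step, 85 passed whichever library was left out, 5 were lost with library totals, 7 with the minimum fold change, 2 with no filter on low counts and 1 with limma-voom, and none of the 96 changed direction in any alternative. In the step, limma-voom called 6620 genes (3324 higher, 3296 lower), the minimum fold change of 1.5 left 2258 (888 higher), and library totals gave 1099 rises. Leaving out 1 library gave 1051 to 1388 rises, the fewest without stage III library 2. With the minimum fold change, rises numbered 10 in the actin list, 6 in lysosomes, 2 in vesicle fusion, 5 in antigen presentation, 5 in the oxidative burst list and 1 among cytosolic ribosomal proteins, and falls 9 among mitochondrial ones. For the difference from the steady state step from stage III to IV, positive calls numbered 1705 with limma-voom, 539 with library totals, 588 (of 1549 calls) with the minimum fold change, and 702 to 1061 with 1 library left out, the fewest without steady state stage IV library 2. For the difference from the step from stage II to III, DESeq2 gave 506 calls (361 positive, 145 negative), limma-voom 96 negative calls, only the libraries of the contrast 122 (17 negative), and the minimum fold change 113 (93 and 20). That count was 478 (309 and 169) without the steady state libraries numbered 3, and 114 to 356 (83 to 198 positive, 30 to 158 negative) with 1 library left out. It was lowest without IL-33 stage III library 3 and highest without steady state stage II library 3. The causes of these shifts were not tested. In steady state the NF-kB list summed to 1256, 1368 and 5832 CPM in stage II. The sums were 1832, 1786 and 5701 CPM in stage III and 1951, 2353 and 7804 CPM in stage IV. Library 3 was also the highest of each of these stages for the AP-1 list, and its part in the counts was not tested.

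Same-numbered libraries of the 2 stages deviated together with correlations of 0.0463, 0.0957 and 0.103, not all above the bar of 0.1 for pairing, although each of the 6 libraries was closest to its own number. With the replicate block the step had 2044 rises and 2326 falls, and the difference from the stage II to III step passed for 319 genes (127 negative). With the block, 3 granule genes fell, and rises numbered 8 in the AP-1 list, 7 in the NF-kB list, 8 in oxidative phosphorylation, 5 in glycolysis and 11 in the list of IL-5 and IL-33 signals. Xbp1, which did not pass, had a log2 fold change of -0.15 with library totals and of -0.0569 to 0.325 with 1 library left out. Qrfpr, which did not pass in the step either, ranged from -0.58 to 0.44 with 1 library left out. Sequencing depth limits genes of low count: a group at 0 allows up to 3 counts.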
